A study of Mus musculus with 4 samples.

Results

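The collagen genes are the 44 mouse genes whose symbol is Col, a type number, the letter a and a chain number, out of 32808 genes with a symbol in the deposited count table. Membership follows from the name alone and used no measured value. By type they were split into 11 fibrillar genes, 6 genes of type IV (basement membrane), 6 of type VI and 21 others. The study used cultured C57BL/6 female germline stem cells at passages above 20, and set cells given spermidine (labelled SPD) beside controls at 4 h. Each group had 2 RNA-seq libraries, and no group carried a named allele. No source used here gives the spermidine dose. Whether the libraries come from separate cultures is not stated, and the p-values therefore reflect the spread between these 4 samples alone, which may be technical.

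Collagens are secreted proteins in which 3 chains wind into a helix. Fibrillar collagens (types I, II, III, V, XI, XXIV and XXVII) form the tension-bearing fibres of connective tissue, type IV forms the sheet of basement membranes, and type VI forms beaded filaments around cells. In the ovary, fibrillar collagens lie mainly in the stroma and the theca layers, and type IV lies in the basement membranes of follicles and vessels.

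Depth was 7206176 and 7128901 counts for the controls, but 787600 and 1718944 for spermidine, and of the latter 1 row, AY036118, took 29.6% and 30.7% against 1.68% and 1.64% in the controls. Olfactory and vomeronasal receptor genes, which these cells are not known to use, gave 3.20 counts per kb in spermidine replicate 1 and 0.173 in replicate 2, against 0.0598 and 0.154 in the controls. That rate is used below as the background of each library. Germ cell markers went against the cell label in part. Ddx4 had 1 count in all 4 libraries and Dazl 3, over 434 and 432 bases at which they can be counted. Of the 8 listed markers 3 were tested. Tex19.1 was lower (1955 and 1770 control counts against 36 and 25), while Dppa3 (2 and 3 against 9 and 263) and Ifitm3 (49 and 132 against 72 and 146) were higher.

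Reads falling on several transcript rows at once were left out of the table, so a gene is visible only over the bases that 1 row alone covers, called its own bases here. Of the 44 collagens, 13 had a single row, and 11 had at least 80% of the length of their longest row as own bases. Col7a1, Col24a1 and Col25a1 had no own base and cannot be seen at all. Col4a1, a chain of nearly all basement membranes, had 828 own bases of a longest row of 6632 and 1 count in all. Its RefSeq start lies 21 bases from that of Col4a2 on the opposite strand, and Col4a2 with 6428 own bases was one of the most abundant members. Of the members, 14 had 0 counts in every library, each with at most 942 own bases. A further 10 had 1 to 9 counts, and 20 had at least 10. After the filter on low counts 16 were tested, among them 11 of the 13 single-row genes and 5 of the 31 others.

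**Figure D1:**
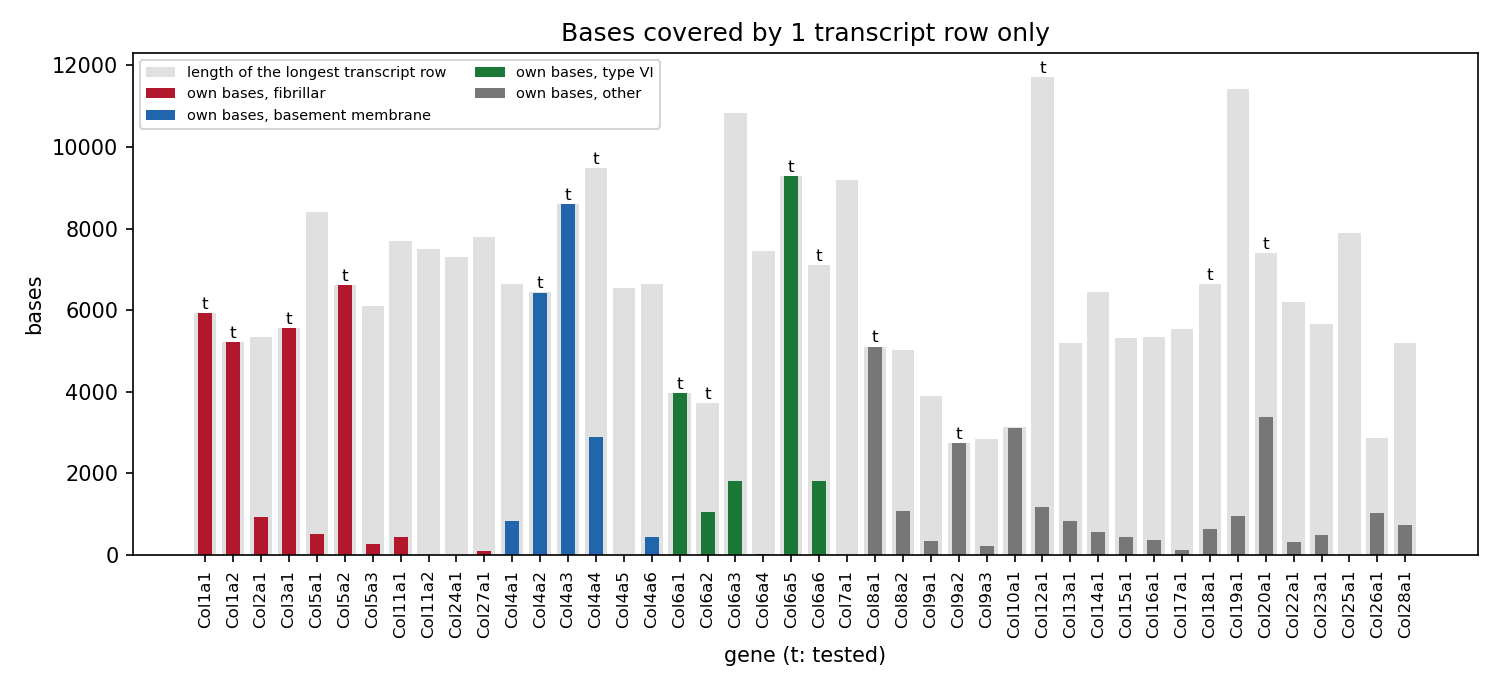
Length of the longest transcript row (grey bars, in bases) and own bases (coloured bars) for the 44 collagen genes, by class, with t above the 16 tested genes. Tested genes are mostly those with long own stretches, such as Col6a5 with 9297 bases, while Col7a1, Col24a1 and Col25a1 have 0.

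Most of the collagens that could be tested were far higher in the spermidine libraries than in the controls. In edgeR's quasi-likelihood fit, with p-values adjusted by Benjamini and Hochberg's method over all genes, 13 of the 16 tested collagens were called higher and 0 lower, where 24.8% of all 7836 tested genes were called higher and 3.99% lower. At an unadjusted edgeR p under 0.05, 14 were higher and 0 lower. Of all 7836 tested genes, 3113 had such a p in either direction, 803 of them lower. DESeq2 called 14 collagens higher and 0 lower, where it called 23.3% of all tested genes higher. The median log2 fold change of the 16 was 5.69, or 5.67 with the 3 members that had 0 to 3 control counts set to their bound, against 0.23 for all tested genes. Both spermidine libraries lay above both controls for 14 of the 16, against 36.6% of all tested genes. This count and the median include the members that passed the low-count filter through the spermidine libraries, described below. Collagens took up 0.0110% and 0.0229% of the counts of control replicates 1 and 2, against 0.351% and 1.17% for spermidine replicates 1 and 2.

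The filter on low counts bears on these numbers. Among all tested genes with under 10 counts in both controls, which passed the filter through the spermidine libraries, 96.2% were called higher, and so were the 6 collagens of that kind (Col4a3, Col4a4, Col6a5, Col6a6, Col9a2 and Col12a1). Their calls are near that background and are no result about collagens. Among genes with at least 10 counts in a control, 8.04% were called higher, against 7 of 10 collagens: Col1a1, Col1a2, Col3a1, Col5a2, Col4a2, Col6a1 and Col6a2. The filter is scaled to library size and asked for more than 10 counts in the controls. Col6a2 (4 and 12 control counts) therefore also passed it through the spermidine libraries, and Col18a1 (18 and 14), not called, needed a spermidine library to pass. With at least 1 CPM required in all libraries, 6 of 8 tested collagens were higher, against 4.40% of all tested genes. These 6 are the 7 above without Col6a2. The number of collagens called was 0 without control replicate 1, where no gene at all was called and 13 collagens had an unadjusted p under 0.05, and 8 without spermidine replicate 1. Of the 7, Col1a1 (adjusted p = 0.068), Col4a2 (0.085) and Col6a1 (0.064) were not called in the edgeR fit without spermidine replicate 1, where their log2 fold changes were 5.84, 6.37 and 6.13. That fit also lost the calls of Col6a5 and Col12a1. Without control replicate 1 and without spermidine replicate 1, the median log2 fold change of the 16 was 5.61 and 6.40. Over all tested genes it was 0.302 and 0.00454. Without control replicate 2 and without spermidine replicate 2, the median of the 16 was 6.23 and 4.29, and that of all tested genes 0.347 and 0.403. In each of these fits the 16 include the 6 low members. In bulk samples, fewer cells of a type and less RNA per cell cannot be told apart.

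**Figure D2:**
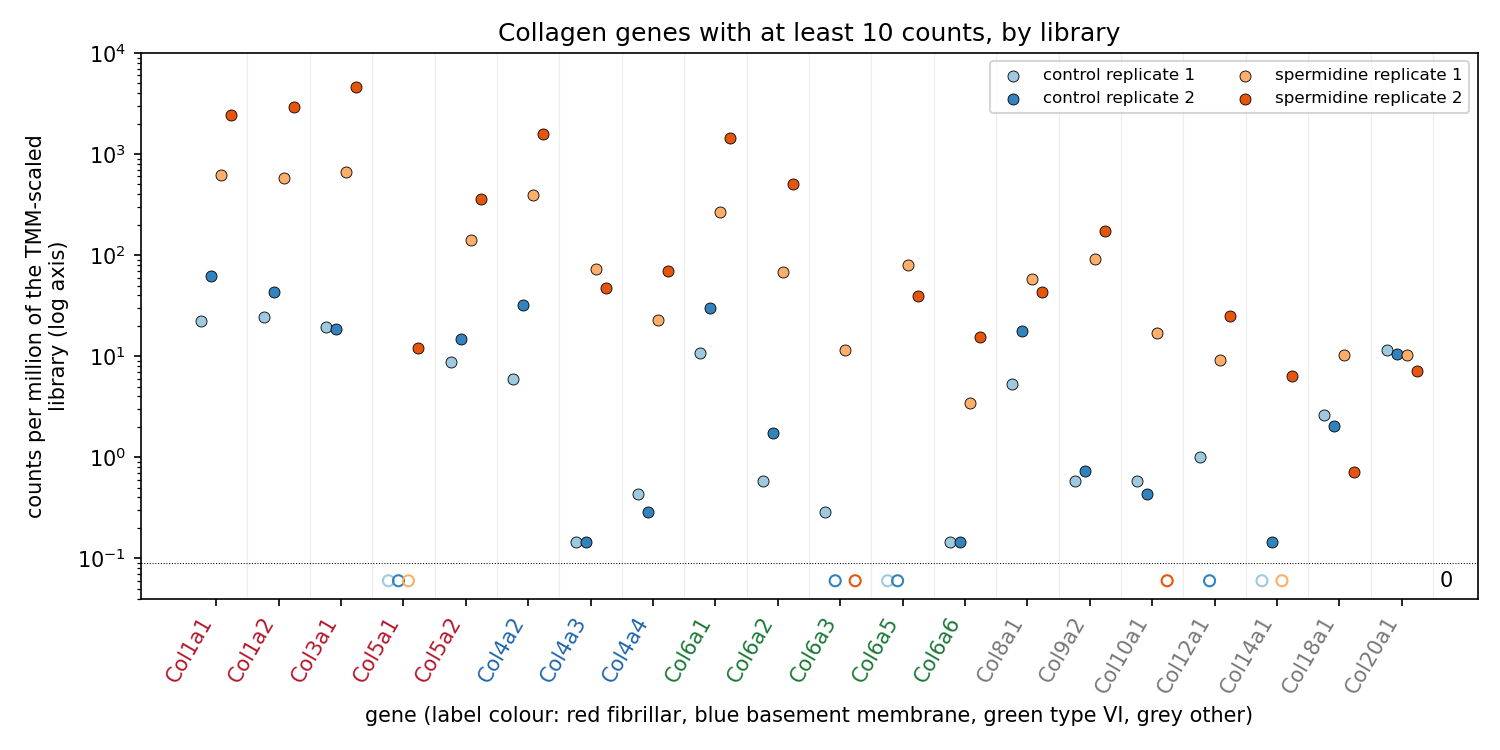
CPM of the TMM-scaled library (log axis) for the 20 collagen genes with at least 10 counts, 1 point per library, with libraries at 0 as open circles at the bottom. For the 13 genes called higher, both orange spermidine points lie above both blue control points, while Col20a1 has all 4 libraries between 7.12 and 11.4.

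The promoters of the fibrillar gene Col1a2, the fibrillar gene Col3a1 and the type VI gene Col6a1 are shown because these genes of different classes were all called higher. Each run is the 250 bases before the RefSeq start in GRCm38.p6, on the gene's own strand. Capitals mark 3 motifs on either strand, none overlapping another there: the CCAAT letters, the TATA box letters TATAAA, and the GC box letters GGGCGG.
Col1a2: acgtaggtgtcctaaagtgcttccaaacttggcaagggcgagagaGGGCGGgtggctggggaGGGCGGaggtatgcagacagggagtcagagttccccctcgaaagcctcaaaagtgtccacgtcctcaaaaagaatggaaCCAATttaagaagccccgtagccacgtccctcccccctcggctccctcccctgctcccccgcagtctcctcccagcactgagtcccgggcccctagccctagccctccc
Col3a1: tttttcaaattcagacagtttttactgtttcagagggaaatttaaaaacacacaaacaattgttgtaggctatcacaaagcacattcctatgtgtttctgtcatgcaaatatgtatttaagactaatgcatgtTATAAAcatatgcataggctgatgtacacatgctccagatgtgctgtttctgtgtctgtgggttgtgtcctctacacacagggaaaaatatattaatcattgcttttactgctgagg
Col6a1: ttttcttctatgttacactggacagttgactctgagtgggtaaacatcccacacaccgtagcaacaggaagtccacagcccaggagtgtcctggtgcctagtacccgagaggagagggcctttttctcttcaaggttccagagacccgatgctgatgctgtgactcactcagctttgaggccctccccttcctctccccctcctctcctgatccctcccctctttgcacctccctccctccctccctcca

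They lie at chr6:4505368-4505617 (plus strand), chr1:45311288-45311537 (plus strand) and chr10:76726045-76726294 (minus strand). The Col1a2 stretch holds 1 CCAAT and 2 GGGCGG and is 62.0% G and C. The Col3a1 stretch holds 1 TATAAA and is 35.2% G and C, and none of the 3 motifs occurs in that of Col6a1. Over the 300-base RefSeq promoters of 35 collagen genes, from 250 bases before to 50 after the start, CCAAT occurred in 13 genes, TATAAA in 5 and GGGCGG in 22. Of all 32851 promoters, 37.4%, 13.6% and 35.7% held these letters. Among the 9 called collagens with a promoter sequence, CCAAT occurred in 2, TATAAA in 1 and GGGCGG in 6. These are matches of letters and not shown to be binding sites.

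Among the members comparable per length, the type I genes had the highest mean level per kb in the controls, and in the spermidine libraries Col3a1 of type III stood above them. Col1a1 and Col1a2 encode the chains of type I collagen, the main fibre protein of connective tissue. Col1a1 (chromosome 11, 94936224 to 94953042, GRCm38) had 155 and 430 counts in control replicates 1 and 2 and 548 and 3401 in spermidine replicates 1 and 2. Scaled to depth, these were 22.5 and 62.2 CPM (counts scaled to a common library size with TMM factors) against 627 and 2421. The groups did not overlap, and the log2 fold change was 5.17 ± 0.90 (SE, n = 2 per group; edgeR adjusted p = 0.00665). Col1a2 (chromosome 6, 4505618 to 4541543) had 167 and 300 control counts against 506 and 4106, or 24.2 and 43.4 CPM against 579 and 2923. It rose by 5.70 ± 0.93 on the log2 scale (edgeR adjusted p = 0.00591). In both genes control replicate 2 was above control replicate 1 and spermidine replicate 2 above spermidine replicate 1.

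Col3a1 (chromosome 1, 45311538 to 45349706), which encodes type III collagen of soft tissues and vessel walls, had nearly equal controls. Its counts were 135 and 129 against 586 and 6477, or 19.6 and 18.7 CPM against 670.1 and 4610.4, and it rose by 7.11 ± 1.07 (edgeR adjusted p = 0.0049). Col5a2, a chain of type V collagen that helps start fibrils and lies next to Col3a1 in the genome, had 60 and 103 counts against 124 and 504. Its levels were 8.69 and 14.9 CPM against 142 and 359, with a log2 fold change of 4.41 ± 0.70 (edgeR adjusted p = 0.00564), the smallest among the called collagens. Its partner chain Col5a1 was too thinly covered to test, with 0 counts in 3 libraries and 17 in spermidine replicate 2 over 525 own bases. The other 6 fibrillar genes (Col2a1, Col5a3, Col11a1, Col11a2, Col24a1 and Col27a1) had 0 counts in every library, with 0 to 942 own bases.

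**Figure D3:**
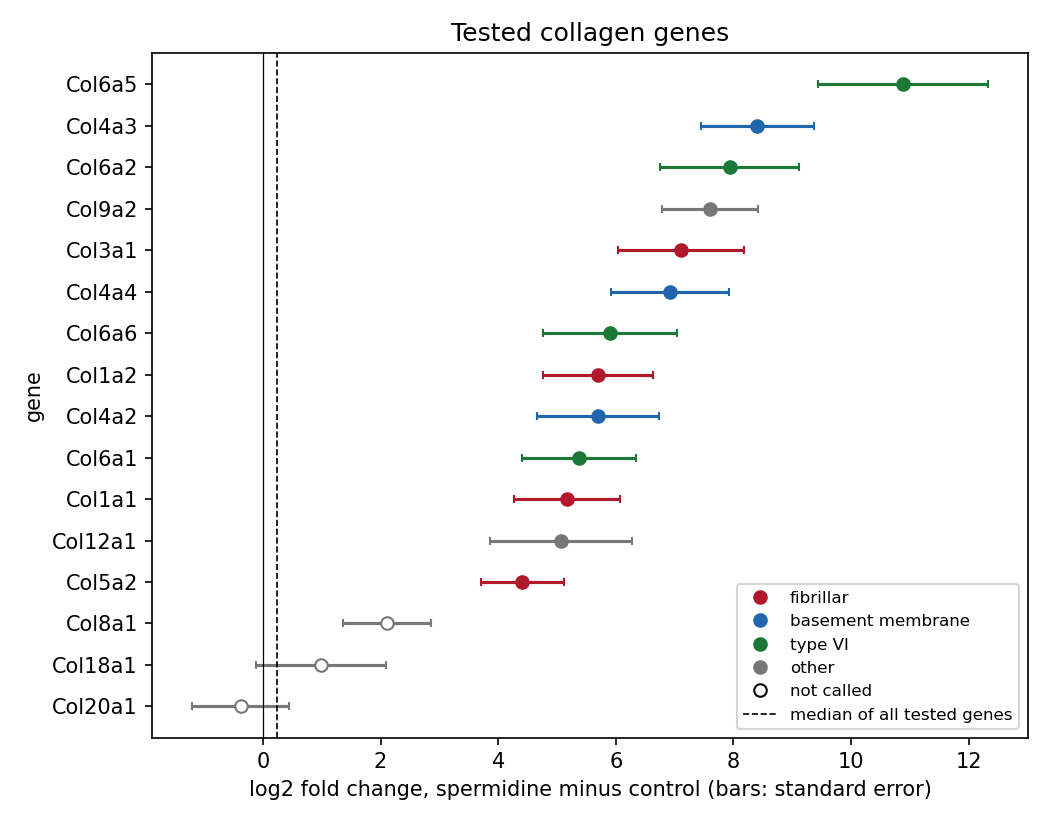
Log2 fold change of spermidine over control with its standard error for the 16 tested collagen genes, coloured by class, with filled points for called genes and a dashed line at the median of all tested genes (0.23). The called genes run from 4.41 for Col5a2 upwards, and Col8a1, Col18a1 and Col20a1 are not called. The values of Col4a3, Col6a5 and Col6a6 depend on the prior count, since their controls hold 0 to 3 counts.

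Type IV genes lie in pairs along chromosomes, and their chains join in protein. Col4a2, which joins Col4a1 in most basement membranes, had 41 and 223 control counts against 345 and 2218 (chromosome 8, 11312805 to 11449287). Its levels were 5.94 and 32.3 CPM against 395 and 1579, and it rose by 5.69 ± 1.03 (edgeR adjusted p = 0.00717). Its controls differed 5.43-fold from each other, the widest gap between controls among tested collagens with counts in both. Col4a3 and Col4a4 are head-to-head neighbours on chromosome 1 whose chains, with that of Col4a5, build the basement membrane of the kidney filter. Col4a3 had 1 and 1 control counts against 64 and 67, which pools to a 397-fold difference (95% counting interval from 108 to 3312; edgeR adjusted p = 0.00281). Col4a4 had 3 and 2 against 20 and 97 (log2 fold change 6.92 ± 1.0, edgeR adjusted p = 0.00378). Both were called, though in spermidine replicate 1 their counts were 2.32 and 2.17 times the background expected over their own bases, 27.5 and 9.23 counts. In spermidine replicate 2 they were 45.0 and 195 times the background. Col4a5 and Col4a6 had 0 counts, with 1 and 440 own bases.

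Type VI collagen is built of the Col6a1 and Col6a2 chains together with a longer one from Col6a3, Col6a4, Col6a5 or Col6a6. Col6a1 and Col6a2, neighbours on chromosome 10, moved in the same direction. Col6a1 had 75 and 209 control counts against 231 and 2024, or 10.9 and 30.2 CPM against 264 and 1441, and rose by 5.38 ± 0.97 (edgeR adjusted p = 0.00711). Col6a2 had 4 and 12 against 60 and 712 over 1056 own bases and rose by 7.93 ± 1.18 (edgeR adjusted p = 0.00463). Its spermidine libraries differed 7.39-fold in CPM, the widest gap among called collagens.

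Of the longer chains, Col6a5 had 0 counts in both controls and 70 and 55 in the spermidine libraries, at least 252-fold higher against a floor of 3 counts over the control group (edgeR adjusted p = 0.00451). Its 70 counts stand against an expected background of 29.8, and its 55 against 1.61. Col6a6 had 1 and 1 control counts against 3 and 22, which pools to a 75.7-fold difference (95% counting interval from 18.9 to 659.8), and it was called (edgeR adjusted p = 0.0071). Its 3 counts in spermidine replicate 1 were below the 5.83 expected from background, so that library does not show it above background. With the background subtracted it had too few counts to be tested. Col6a3 had 2 and 0 control counts and 10 and 0 spermidine counts and was not tested, and Col6a4, with 35 own bases, had none.

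Of the remaining 21 collagens 5 could be tested and 2 were called, both of them genes with under 10 counts in each control. Col9a2, a chain of type IX collagen that coats cartilage fibrils, had 4 and 5 control counts against 80 and 242, and rose by 7.61 ± 0.82 (edgeR adjusted p = 0.00281). Its spermidine counts were 9.10 and 509 times the background. Col12a1, a fibril-associated collagen of dense connective tissue, had 7 and 0 against 8 and 35 (5.06 ± 1.21, edgeR adjusted p = 0.0118). Its call rests on few counts. It was lost in the edgeR fits without control replicate 2 (4.07, adjusted p = 0.098) and without spermidine replicate 1 (5.55, adjusted p = 0.089). It was also lost without control replicate 1 (8.80, adjusted p = 0.075), where no gene was called.

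Col8a1, Col18a1 and Col20a1 were tested and not called. Col8a1, a short network-forming chain found around vessels, had 37 and 124 control counts against 51 and 61, or 5.36 and 17.9 CPM against 58.3 and 43.4. Both spermidine libraries lay above both controls, yet the log2 fold change of 2.11 ± 0.75 missed the threshold (edgeR adjusted p = 0.0677), while DESeq2 called it (2.20, adjusted p = 0.0433). Col18a1, a basement membrane collagen whose end fragment is endostatin, had 18 and 14 against 9 and 1 (0.98 ± 1.10, edgeR adjusted p = 0.541). Its value turned to -1.67 without spermidine replicate 1. Col20a1, a fibril-associated collagen, had 79 and 73 control counts against 9 and 10 (-0.38 ± 0.82, edgeR adjusted p = 0.763), and 9 counts in spermidine replicate 1 are 0.83 times its background. Its 152 control counts were nearly as many as those of Col5a2, with 163.

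Among the untested members with at least 10 counts, Col10a1, the collagen of hypertrophic cartilage, had 4 and 3 control counts against 15 and 0, with 9.97 expected from background in spermidine replicate 1. Col14a1, a fibril-associated collagen, had 0 and 1 against 0 and 9. Counts of Col19a1 (4), Col26a1 (7) and Col28a1 (7) occurred in spermidine replicate 1 alone, where background gives 3.10, 3.28 and 2.32. Col8a2, Col9a3, Col15a1, Col17a1, Col22a1 and Col23a1 had 1 to 6 counts in all. Col7a1, Col9a1, Col13a1, Col16a1 and Col25a1 had 0, over 0 to 833 own bases.

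**Figure D4:**
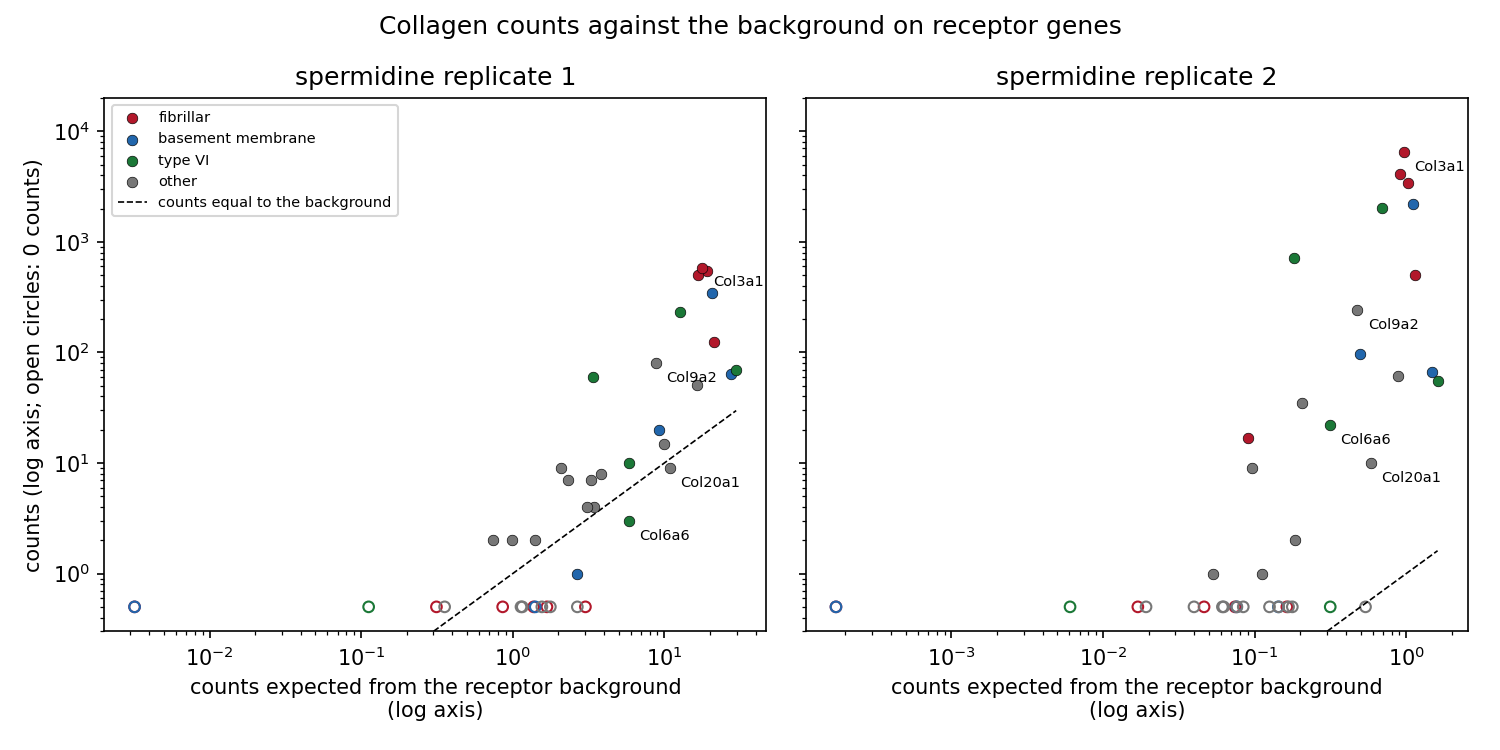
Counts of each collagen gene with own bases against the counts expected from the receptor-gene background over those bases, in each spermidine library (both axes logarithmic, open circles for 0 counts, dashed line for equality). In replicate 1 Col20a1, Col6a6 and Col4a1 lie below the line among genes with counts, and Col3a1 lies at 32.9 times it, while in replicate 2 all tested genes lie above the line.

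The abundant members lay far above the background. Of the 13 called collagens, 8 had at least 5 times the background in spermidine replicate 1 (Col3a1 32.9 times, Col1a2 30.3, Col1a1 28.9), and 5 had under 3 times (Col4a3, Col4a4, Col6a5, Col6a6 and Col12a1). In spermidine replicate 2 each had at least 34.2 times. With this background subtracted from every gene in every library, 12 of 15 tested collagens were called higher and 0 lower. In that fit 17.9% of all tested genes were called higher. After AY036118 was removed and every library was thinned to 554572 counts, 9 of 13 collagens were higher and 0 lower. There 5.17% of all tested genes were called higher. Both collagen counts include Col4a3 and Col9a2, which had under 10 counts in both controls.

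Levels between genes can be compared per length for the 11 members with nearly all bases their own. In the spermidine libraries the order of mean level was Col3a1, Col1a2, Col1a1, Col6a1, Col4a2, Col9a2, Col5a2, Col8a1, Col4a3, Col6a5 and Col10a1. Col3a1 had 120.4 and 829 CPM per kb in replicates 1 and 2, Col1a1 106 and 408, and Col4a2 61.4 and 246. Neighbours in this order overlapped in their range over the spermidine libraries, with 1 break, between Col5a2 (21.4 and 54.2 CPM per kb) and Col8a1 (11.4 and 8.50). In the controls Col1a1 (3.79 and 10.5 CPM per kb) had the highest mean, then Col1a2 (4.63 and 8.31), Col6a1 (2.73 and 7.61) and Col3a1 (3.52 and 3.35).

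Ratios between chains within a library do not depend on scaling. Per own base, Col1a1 stood to Col1a2 at 0.817 and 1.26 in the controls against 0.954 and 0.729 with spermidine, overlapping ranges. Col3a1 stood to Col1a1 at 0.928 (95% counting interval 0.731 to 1.18) and 0.320 (0.261 to 0.390) in the controls, against 1.14 (1.01 to 1.28) and 2.03 (1.95 to 2.12) with spermidine. Col8a1 stood to Col1a1 at 0.277 and 0.335 against 0.108 and 0.0208, so the ratio was lower in both spermidine libraries. Col6a1 stood to Col1a1 at 0.722 and 0.725 against 0.629 and 0.888, with no separation of the groups. These ratios are descriptions, and their differences between groups were not tested.

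**Figure D5:**
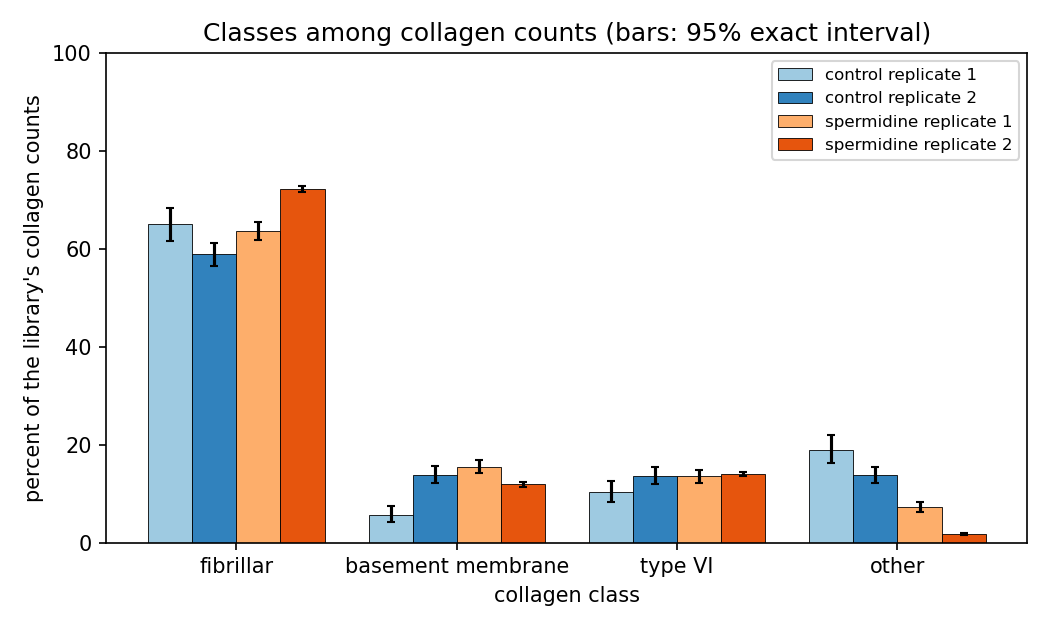
Share of each library's collagen counts (percent, with 95% exact Clopper-Pearson interval) in the 4 collagen classes. The fibrillar class holds 58.9% to 72.3% in all 4 libraries, and the class of other collagens holds 19.0% and 13.7% of control against 7.23% and 1.80% of spermidine collagen counts.

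By class, the fibrillar genes held the largest share of collagen counts in each of the 4 libraries. Fibrillar genes held 65.0% and 58.9% of collagen counts in the controls against 63.7% and 72.3% with spermidine, and type VI genes 10.3% and 13.6% against 13.5% and 14.0%. Type IV genes held 5.66% and 13.8% against 15.5% and 11.9%. The other collagens, mainly Col8a1 and Col20a1 in the controls, held 19.0% and 13.7% against 7.23% and 1.80%. Types I and III alone held 57.5% and 52.6% of control and 59.2% and 69.7% of spermidine collagen counts. These intervals, like the floors, reflect counting error and no other.

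The spermidine libraries were unequal for the collagens. In CPM, replicate 2 exceeded replicate 1 for 11 of the 13 called genes, by 3.86-fold for Col1a1, 5.05-fold for Col1a2 and 6.88-fold for Col3a1. Col4a3 and Col6a5 went the other way, at 0.652 and 0.489. Over all tested genes, the SD of the log2 ratio between replicates was 1.51 in spermidine and 0.59 in control. Control replicate 2 also exceeded control replicate 1 in most of the abundant members, by 2.77-fold for Col1a1, 2.78-fold for Col6a1 and 3.35-fold for Col8a1, but not for Col3a1 (0.954).

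Genes that make, assemble and bind collagen were measured beside the chains. Of 21 genes for collagen folding and modification in the endoplasmic reticulum, 11 were tested, 4 were higher and 0 lower, with a median log2 fold change of 0.29. P3h2, a prolyl 3-hydroxylase active on type IV collagen, had 1 and 2 control counts against 53 and 59 (edgeR adjusted p = 0.00281). Creb3l1, a transcription factor that activates collagen genes, had 8 and 10 against 42 and 175 and rose by 6.04 ± 0.84 (edgeR adjusted p = 0.0040). General members of this machinery, named after their values were seen, were abundant in the controls. P4hb, the disulfide isomerase that is also the beta subunit of prolyl 4-hydroxylase, had 16840 and 18832 control counts against 762 and 3792 (-0.53 ± 0.68, edgeR adjusted p = 0.595). Crtap and the lysyl hydroxylase gene Plod1 had -0.09 ± 0.72 and 0.29 ± 0.59, also not called.

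Of 15 genes for procollagen processing and cross-linking, 6 were tested, 4 were higher and 0 lower (median 4.84, or 4.29 at the bound). Adamts2, the protease that removes the amino-terminal propeptide of fibrillar collagens, had 0 and 0 control counts against 14 and 66, at least 162-fold higher against the floor. Tgm2, a cross-linking transglutaminase, had 12 and 20 against 60 and 628 and rose by 6.80 ± 1.04 (edgeR adjusted p = 0.00525). Among 10 collagen receptor genes 6 were tested, 4 were higher and 0 lower (median 6.05, or 5.86 at the bound). All 4 (Itga1, Itga2, Itga11 and Ddr1) had under 10 counts in both controls, where 96.2% of all tested genes were called higher, and neither of the other 2 was called. Itga1 and Itga2, which encode collagen-binding integrin chains, had 3 and 3 against 43 and 54 and 1 and 3 against 36 and 43. Their common partner Itgb1, named after its values were seen, had 4033 and 3505 against 236 and 1112 (-0.03 ± 0.61, edgeR adjusted p = 0.976).

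Fibril-associated matrix proteins were higher for 5 and lower for 0 of 6 tested out of 21 (median 6.96). The small proteoglycan Lum had 2 and 5 control counts against 65 and 255, and Ogn had 2 and 12 against 56 and 559. They rose by 7.91 ± 0.91 and 7.81 ± 1.17 (edgeR adjusted p = 0.00281 and 0.00463). Of 10 basement membrane partners, 3 were tested and all 3 were higher (median 6.08, or 6.06 at the bound). Nid2, a nidogen that links type IV collagen to laminin, had 2 and 29 against 105 and 260 and rose by 6.08 ± 0.92 (edgeR adjusted p = 0.00507), and Frem2 had 0 and 2 against 18 and 15. The background over the 9294 own bases of Frem2 gives 29.8 counts in spermidine replicate 1, above its 18, and it could not be tested with the background subtracted. In all, 20 partner genes of 32 tested were higher and 0 lower, where 24.8% of all tested genes were called higher. Of these 20, 11 had under 10 counts in both controls, a kind of gene called higher in 96.2% of cases, and all 11 tested partners of that kind were called. Among partners with at least 10 counts in a control, 9 of 21 were higher, against 8.04% of all such genes: P3h3, P3h4, Creb3l1, Loxl1, Tgm2, Ogn, Thbs2, Nid1 and Nid2. Here too the filter asked for more than 10 counts in the controls. P3h3 (10 and 9 control counts), Creb3l1 and Ogn passed through the spermidine libraries, and P3h4 (8 and 29), Tgm2 and Nid2 needed a spermidine library to pass. With at least 1 CPM required in all libraries, 6 of 19 tested partners were higher, against 4.40% of all tested genes. The count of 20 was 0 without control replicate 1 and 8 without spermidine replicate 1, and without spermidine replicate 2 it was 21, with 3 lower.

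Markers of several ovarian cell types were higher in the same libraries as the collagens, and those of blood cell types were mixed. Calls of genes with under 10 counts in both controls stand against the 96.2% given above, and those of other genes against 8.04% higher. Some of the other genes may also have passed the filter through the spermidine libraries, as Col6a2 did among the collagens. Of 10 fibroblast and stroma markers, 7 were tested, 4 were higher and 0 lower, and their summed level was 9.56 and 66.6 CPM in the controls against 247 and 651. Fap was at 0 in every library and Pdgfrb at 0 in both spermidine libraries, with 121 and 670 own bases, and Lum and Dcn are also in the matrix list. Of its 4 tested members with at least 10 counts in a control, 1 was higher. Smooth muscle and pericyte markers (3 of 4 tested higher, all 4 with at least 10 counts in a control) summed to 12.8 and 23.7 CPM against 201 and 1040.0. Granulosa and theca markers (7 of 7 higher, 4 of them with under 10 counts in both controls) summed to 27.5 and 25.3 CPM against 2059 and 6922, and oocyte markers (5 of 5 higher, all 5 of that low kind) to 1.45 and 2.60 against 158 and 2197. Ovarian surface epithelium markers (4 of 5 higher, all 4 of the low kind) summed to 9.27 and 8.83 CPM against 101 and 243, and endothelial markers (3 of 3 higher, all of the low kind) to 1.45 and 0.579 against 105 and 117, with Pecam1, Cdh5, Tek and Emcn at 0 over 0 to 54 own bases. Mast cell markers summed to 137 and 85.7 CPM against 41.2 and 5.69, with 1 of 1 tested lower. Macrophage and general leukocyte markers summed to 171 and 172 CPM against 389 and 177, with 2 of 5 tested higher, 0 lower and a median log2 fold change of -1.41. Megakaryocyte and erythroid markers summed to 850.1 and 689.9 CPM against 348 and 845, with 2 of 5 higher and 1 lower. Germ cell markers summed to 292 and 278 CPM against 149.8 and 309.6. The part of these cell types in the collagen values was not tested.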

How the data were processed

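RNA of 2 control and 2 spermidine libraries was sequenced in pairs of reads on an Illumina instrument, per the labels' protocols, which name 2 library kits without saying which served which library. The authors deposited whole-number counts, not normalised, per RefSeq transcript row. HISAT2, DESeq2 and mm9 are named in the submitters' processing notes, without roles, and no source used here names the counting program. Exon positions matched GRCm38 gene spans for 88.5% of matched rows and are given as GRCm38.

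Of 106519 rows, 86032 matched a symbol in a RefSeq table of GRCm38.p6, and rows of a gene were summed. Unmatched rows took 1.75% and 1.66% of the control counts, then 4.47% and 1.15% of those of spermidine replicates 1 and 2. Genes passing edgeR's filterByExpr (count minimum 10, total minimum 15) received TMM factors and entered the glmQLFit and glmQLFTest functions of edgeR 4.0.16 in R 4.3.3, with bias-adjusted deviances and the group as the only term. Calls needed an adjusted p (Benjamini-Hochberg) under 0.05. The SE is the fold change over the square root of F. In CPM, 3 counts, the floor, equal 0.435 and 0.434 for the controls but 3.43 and 2.14 for spermidine. Counting intervals for pooled ratios are exact and conditional on the total. Alternatives used other scalings, filters, DESeq2 1.42.0, limma-voom (limma 3.58.1), a replicate block, thinned counts, subtracted background, transcript rows, a stricter threshold and each library left out. The legacy edgeR test, this version's default, was run first, and the choice between it and the bias-adjusted one was made after both results had been seen. Fits that left out a library kept the genes that passed with all 4, and the spread of a group left with 1 library was taken from the other group.

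Members and gene lists were chosen with earlier results of these data known. All tested collagens and those with at least 10 counts are named, with the 2 smallest p among called genes of each partner list. One listed name, Ctage5, matched no gene symbol. Promoter sequences are from RefSeq (35 of 44 genes matched).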

Additional observations from a re-analysis of the deposited data

How the results depend on the processing

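The collagen count of 13 higher was 9 to 14, with 0 lower, under the scalings, DESeq2, limma-voom, the legacy edgeR test, transcript rows, the stricter threshold, thinned counts and subtracted background. Over those settings except transcript rows, 5.17% to 25.5% of all tested genes were called higher. The collagen count was 6 of 8 tested when every library had to reach 1 CPM, where 4.40% of all tested genes were called higher. With no low-count filter, 4255 of all 29024 tested genes had an unadjusted edgeR p under 0.05 in either direction, among them 14 collagens. No gene was called there, and the collagen count was 0 of 30. Over the fits that left out 1 library it ran from 0 to 14. The partner count of 20 higher was 6 with at least 1 CPM in all libraries, 0 with no filter and 9 with all libraries thinned without AY036118. Over fits without 1 library it ran from 0 to 21 higher and 0 to 3 lower. Col20a1 turned from -0.38 to 0.015 with at least 1 CPM in all libraries, and Col18a1 ran from -1.67 without spermidine replicate 1 to 2.20 without spermidine replicate 2. The cause was not tested. With a replicate block, 13 collagens and 19 partner genes were higher and 0 lower, where 21.5% of all tested genes were called higher. Same-numbered libraries share only a number: their deviations correlated at -0.04 across genes. Depth limits the low members: 3 counts in spermidine replicate 1 are 3.43 CPM, above the level of most collagens in the controls.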

Other observations

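Other genes whose proteins carry a collagen-like helix but are no collagens, a list of 21 added after the collagen values were seen, were tested for 5 members, all 5 called higher (median log2 fold change 6.62, or 5.54 at the bound, against 0.23 for all tested genes). Of these, Colec12, Gldn and Scara5 had under 10 counts in both controls, where 96.2% of all tested genes were called higher, and C1qa and C1qb had at least 10 in a control, where 8.04% were. C1qa and C1qb also needed the spermidine libraries to pass the filter, which asked for more than 10 counts in the controls. The complement genes C1qa and C1qb had 15 and 2 and 26 and 0 control counts against 44 and 52 and 74 and 40 spermidine counts. Scara5, a ferritin receptor, had 1 and 2 against 14 and 99, and Colec12, a scavenger receptor, had 0 and 1 against 10 and 13. Gldn, a secreted protein of nerve nodes, had 0 and 2 against 19 and 29. Marco, a macrophage receptor, had 31 counts in spermidine replicate 1 and 1 in replicate 2, over 1985 own bases.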
